A study of Mus musculus with 42 samples.

Results

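Stellate/Basket cells of the mouse cerebellum were compared between postnatal day 21 (P21) and P28. The comparison took the 3 columns labelled Stellate/Basket P21 and the 4 labelled Stellate/Basket P28, which is 7 of the 42 columns of the series, and all genes on the array. All samples came from the CB6-Tg(Gad1-EGFP)G42Zjh/J (G42) strain with the Gad67-GFP bac transgene, in which green fluorescent protein follows the gene for a GABA-synthesising enzyme, and all carry the label male. Slices were held in AP5, CNQX and TTX, which block glutamate receptors and sodium channels, and were digested with a protease. Cells were then picked by hand for GFP and the size of the soma. Their polyadenylated RNA was amplified in 2 rounds and hybridised to Affymetrix MOE430.2 arrays. The transgene labels several GABAergic cell types, so the identity of the cells rests on soma size as well. For comparison the text uses Stellate/Basket cells at P14 (4 arrays) and P35 (2 arrays), and Purkinje cells at P14 (3), P21 (4) and P28 (4), of the same strain, transgene and label of sex. Each further group of the series enters only through the shared estimate of the spread.

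Stellate and basket cells are the GABAergic interneurons of the molecular layer. They receive excitation from the parallel fibres of granule cells and inhibit Purkinje cells, stellate cells on the dendrites and basket cells around the soma and the start of the axon. The processes of Bergmann glia, the radial astrocytes of this layer, run beside the same dendrites and wrap their synapses.

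The authors deposited log2 expression for each probe set, and every level and difference below is on that scale. In the 7 arrays they ran from 3.98 to 14.57, with array medians from 6.07 to 6.11. Over all probe sets, Pearson's r between arrays was 0.9657 to 0.9750 within P21, 0.9670 to 0.9696 within P28 and 0.9591 to 0.9640 between the ages. These coefficients are across probe sets, which are not independent replicates. The number of arrays limits the precision.

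The arrays went against their label of sex. Xist, the RNA of the inactive X chromosome, was at 12.75 to 12.93 at P21 and 12.29 to 12.54 at P28, whereas in the Purkinje arrays at P14 it was at 6.47 to 6.59. The Y-linked Eif2s3y was at 4.23 to 4.29 at P21 and 4.42 to 5.82 at P28, against 8.44 to 9.02 in those Purkinje arrays. All 7 arrays therefore showed high Xist, at both ages, and by these 2 transcripts no array of either age matched the label. The ages did not overlap in either, with Xist lower and Eif2s3y higher at P28, and the part of this in the step was not tested. The Y-linked Kdm5d was at 6.07 to 6.25 at P21 and 6.11 to 6.33 at P28, against 6.24 to 6.53 in those Purkinje arrays. Uty was at 4.96 to 5.10 and 4.96 to 5.05, against 5.12 to 5.26, so these 2 separated little. Of the 2 Stellate/Basket arrays at P35, Xist was at 7.55 in the lower and 12.54 in the higher.

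Transcripts typical of these GABAergic interneurons were present in every array at both ages. Gad1, which encodes the enzyme GAD67, was at 12.60, 12.74 and 12.64 at P21 and at 12.91, 12.84, 12.82 and 12.73 at P28 (difference 0.16 ± 0.14, SE; adjusted p = 0.797, limma). Kit, the stem cell factor receptor that these interneurons carry, had means of 10.72 ± 0.39 (SD, n = 3) and 10.77 ± 0.08 (n = 4). The calcium buffer Pvalb was at 13.38 ± 0.28 and 13.31 ± 0.06. Kit was near the low end of the scale in Purkinje cells, at a mean of 5.30 at P21 and 5.29 at P28. In those cells Gad1 averaged 12.38 and 12.24, and Pvalb 13.61 and 13.32, so neither separates the 2 cell types. Taken over the 16 measured molecular layer interneuron markers, the mean of each array lay between 9.68 and 9.90 at P21 and between 9.67 and 9.91 at P28, so the ages overlapped. Of the 16, 0 were called higher and 1 lower, against 176 of all 17478 genes tested in either direction (1.01%). Calls required an adjusted p under 0.05 together with a difference of at least 1 in size. The member called lower was Adarb2, an RNA-binding relative of the RNA-editing enzymes (-1.02 ± 0.24; adjusted p = 0.0151), whose call was lost without P21 array 2 or 3 or P28 array 1 or 3. Of its 2 other probe sets, the brighter had a difference of 0.43, opposite in sign, and with the mean of its probe sets the difference was -0.26 and not called.

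With no minimum size, 363 genes had an adjusted p under 0.05 (2.08%). In all, 119 genes were higher at P28 (0.681% of those tested) and 57 were lower (0.326%). Differences of at least 2 in size, a 4-fold change or more, were seen in 15 of the higher and 3 of the lower genes. The genes that rose most included a lysosomal protease, a bicarbonate transporter and a stress-response transcription factor. The genes that fell most included a meiotic cohesin subunit, a secreted cartilage protein and markers of young neurons. The 3 P21 and 4 P28 arrays did not overlap for 112 of the 119 higher and 54 of the 57 lower genes. By that criterion alone, 2267 of all genes (13%) had separate arrays, 1099 with P28 above (6.29%) and 1168 with P28 below (6.68%).

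**Figure D1:**
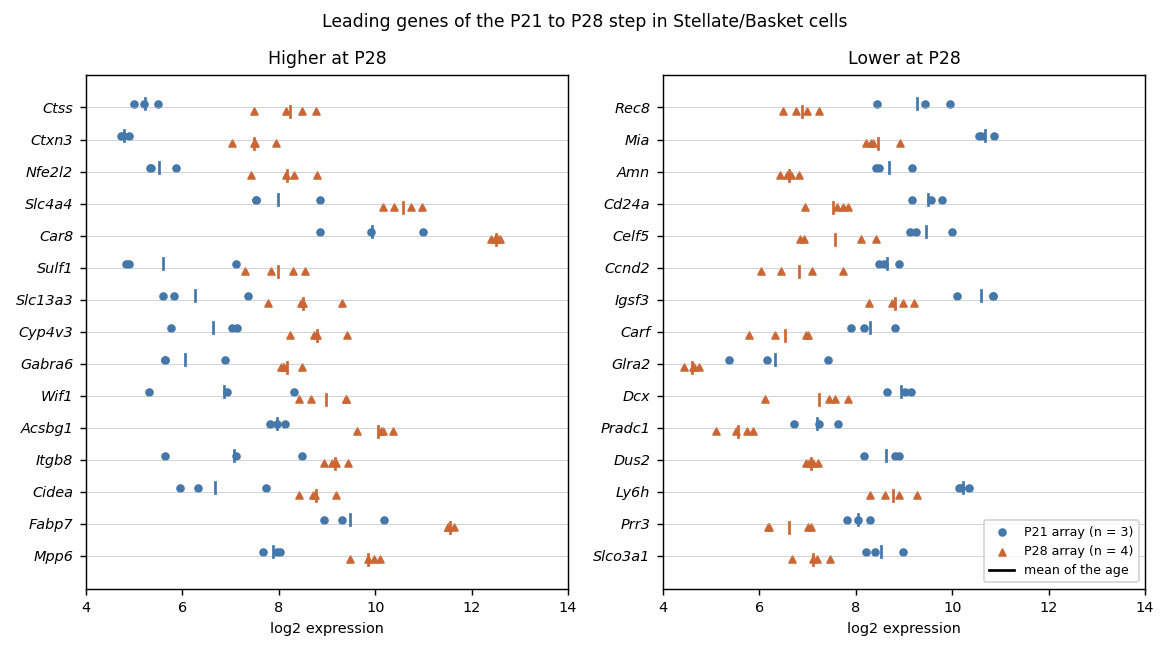
Deposited log2 expression (horizontal axis) of the 15 called genes that differed most in each direction among those whose arrays did not overlap, in each P21 array (circles, n = 3) and P28 array (triangles, n = 4); vertical ticks are the means of each age. Ctss lay between 4.99 and 5.49 at P21 and between 7.49 and 8.77 at P28, while the P21 values of Wif1 were spread from 5.31 to 8.31.

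The largest rise was that of Ctss (probe set 1448591_at), which encodes cathepsin S, a lysosomal cysteine protease best known from microglia and other antigen-presenting cells. It was at 5.21, 4.99 and 5.49 at P21 and at 8.49, 8.77, 7.49 and 8.15 at P28. All P21 arrays were near the low end of the scale and all P28 arrays far above it, a difference of 2.99 ± 0.29 (SE), or 7.97-fold (adjusted p = 1.2e-07, limma). Other microglial transcripts had smaller differences. Tyrobp, a microglial signalling adaptor, was at 5.26, 5.49 and 5.30 at P21 and at 5.31, 5.20, 5.39 and 5.32 at P28. Aif1, which encodes the microglial protein Iba1, was at 4.65 to 4.71 and 4.60 to 4.76. Csf1r, the receptor that microglia need to survive, was at 7.21, 7.12 and 7.96 at P21 and at 7.50, 8.32, 8.57 and 9.34 at P28, which overlapped (1.0 ± 0.38; adjusted p = 0.219). Of the 10 measured microglia markers, 1, Ctss itself, was called higher, 7 had differences above 0, 5 had an unadjusted p under 0.05 (11.9% of all genes did), and the median difference of the list was 0.23 against 0.00 over all genes. The list's mean per array was 5.74 to 5.96 at P21 and 6.23 to 6.53 at P28, so that the ages did not overlap. Ctss is itself 1 of the 10 members, so this mean is not independent of its rise. The part of the other members in the rise of Ctss was not tested.

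Nfe2l2 (1416543_at) encodes NRF2, a transcription factor that turns on genes against oxidative stress and is held back by degradation when unstressed. It was at 5.86, 5.35 and 5.32 at P21 and at 8.80, 8.14, 8.31 and 7.43 at P28. The lowest P28 array exceeded the highest P21 array by a wide margin, and the difference was 2.66 ± 0.28, or 6.31-fold (adjusted p = 2.85e-07). Its only other probe set, at the low end of the scale with a mean of 4.95, differed by 0.04. NRF2 binds the antioxidant response element, whose core is TGACNNNGC. That core was searched on both strands in the 250 bases before each start site of the RefSeq promoter table (GRCm38.p6). So was TGANTCA, a pattern that includes the AP-1 site bound by Jun proteins but is wider than it. The first letters of both motifs are the same, so matches of the 2 can overlap. Windows were matched by symbol for 92 of the 119 higher and 44 of the 57 lower genes.

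The windows of the leading genes that hold the NRF2 core are shown 5′ to 3′, with the match in capitals, because Nfe2l2 is itself among them. Nfe2l2 lies at chr2:75704664-75704913 on the minus strand with its match starting at position -240 from the start site, Slc13a3 at chr2:165473198-165473447 on the minus strand (-201), and Amn, which fell, at chr12:111270846-111271095 on the plus strand (-33). Carf, which also fell, has 2 windows, and the match stands in the window at chr1:60107833-60108082 on the plus strand (-23).
Nfe2l2: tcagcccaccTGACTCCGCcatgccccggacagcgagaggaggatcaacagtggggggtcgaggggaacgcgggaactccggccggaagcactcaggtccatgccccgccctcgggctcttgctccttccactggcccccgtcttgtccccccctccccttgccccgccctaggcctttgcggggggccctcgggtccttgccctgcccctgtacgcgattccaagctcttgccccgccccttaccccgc
Slc13a3: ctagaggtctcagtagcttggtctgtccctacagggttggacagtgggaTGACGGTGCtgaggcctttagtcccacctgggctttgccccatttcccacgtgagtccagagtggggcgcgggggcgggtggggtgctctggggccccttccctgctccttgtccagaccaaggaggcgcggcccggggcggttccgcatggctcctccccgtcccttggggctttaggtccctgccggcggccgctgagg
Amn: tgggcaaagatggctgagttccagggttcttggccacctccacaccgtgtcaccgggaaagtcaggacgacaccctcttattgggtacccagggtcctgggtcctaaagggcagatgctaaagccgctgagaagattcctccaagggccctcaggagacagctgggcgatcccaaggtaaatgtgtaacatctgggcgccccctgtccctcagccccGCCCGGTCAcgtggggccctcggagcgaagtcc
Carf: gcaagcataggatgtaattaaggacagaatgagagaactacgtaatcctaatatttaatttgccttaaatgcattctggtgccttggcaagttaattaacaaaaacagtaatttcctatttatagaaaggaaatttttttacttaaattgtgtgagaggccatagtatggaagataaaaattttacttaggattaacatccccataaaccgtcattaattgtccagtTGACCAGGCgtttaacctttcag

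The NRF2 core stood in the window of 9 of the 92 higher genes (9.78%) and 6 of the 44 lower genes (13.6%), against 1883 of 13884 genes tested that had a window (13.6%) and 11.5% of all genes in the table. The pattern TGANTCA stood in 3 of 92 higher genes (3.26%) and 3 of 44 lower genes (6.82%), against 6.45% of genes tested and 7.82% of the table. Genes with these letters were thus no more frequent among the higher genes than among all genes tested. A match is a description of the letters in this window and not a binding site.

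Of the 16 measured markers of astrocytes and Bergmann glia, 4 rose and 0 fell. Slc4a4 (1452071_at), the electrogenic sodium bicarbonate cotransporter that astrocytes use in pH control, was at 8.86, 7.53 and 7.54 at P21 and at 10.40, 10.75, 10.96 and 10.17 at P28. All 4 P28 arrays were above all 3 P21 arrays, with P21 array 1 the highest of its age, and the difference was 2.59 ± 0.33, or 6.03-fold (adjusted p = 1.21e-05). Of its 4 other probe sets, the 2 bright ones differed by 1.05 and 0.98 and the 2 near the low end by 0.27 and -0.44. Fabp7, the brain fatty acid binding protein of radial glia, was at 9.30, 8.93 and 10.17 at P21 and 11.50, 11.64, 11.51 and 11.52 at P28 (2.07 ± 0.37; adjusted p = 1.25e-03). The P28 arrays lay close together, while the P21 arrays were spread. The folate enzyme Aldh1l1 (1.28 ± 0.35; adjusted p = 0.0468) and the homeodomain protein Hopx (1.06 ± 0.21; adjusted p = 3.97e-03) were the other called members. The call of Aldh1l1 was lost without P21 array 2 or 3 or any 1 of the P28 arrays, and that of Hopx without P21 array 1 or 2. Hopx has 1 other probe set, and it differed by -0.26. In the probe set used, Hopx averaged 11.95 at P21 and 12.24 at P28 in Purkinje cells, and 12.23 in the P28 Stellate/Basket arrays. A high level of Hopx was therefore not particular to glia in this series.

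All 16 differences of these glial markers were above 0, and their median was 0.88 against 0.00 over all genes. The mean of the list was 9.76, 9.39 and 9.81 at P21 and 10.58, 10.63, 10.51 and 10.53 at P28, so the ages did not overlap. The gap junction protein Gja1, the water channel Aqp4 and the glutamate transporter Slc1a2 had separate arrays and differences of 0.78, 0.89 and 0.94 that did not pass the test. The glial glutamate transporter Slc1a3 stood at a mean of 11.65 at P21 and 11.72 at P28, and Gfap at 6.68 ± 0.11 and 6.85 ± 0.15 in the probe set used. Its 2 other probe sets differed by 0.13 and 1.32, the latter at a similar mean level in these arrays. In a sort of interneurons, more cells of another type, more RNA of such cells and more of the transcript in each interneuron cannot be told apart. Other leading genes that glia are known to express also rose: the bubblegum-family acyl-CoA synthetase Acsbg1 (2.10 ± 0.26; adjusted p = 4.01e-06), the integrin subunit Itgb8 (2.09 ± 0.52; adjusted p = 0.0278), the dicarboxylate transporter Slc13a3 (2.24 ± 0.28; adjusted p = 7.46e-06) and the neural stem cell factor Sox2 (1.86 ± 0.39; adjusted p = 6.84e-03). The glial list moved with them, and its part in their rise was not tested.

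**Figure D2:**
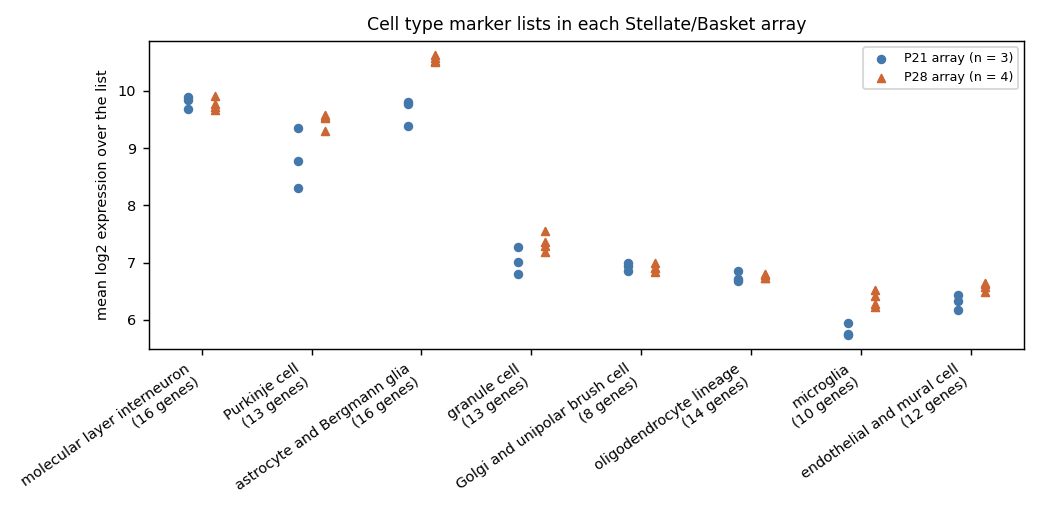
Mean deposited log2 expression (vertical axis) of the measured members of 8 cell type marker lists in each P21 array (circles, n = 3) and P28 array (triangles, n = 4) of Stellate/Basket cells. The astrocyte and Bergmann glia means were 9.39 to 9.81 at P21 and 10.51 to 10.63 at P28, whereas the molecular layer interneuron means overlapped; positions of different lists are not comparable with each other.

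Purkinje cell markers varied among the P21 arrays. Car8, a carbonic anhydrase relative that binds the inositol trisphosphate receptor of Purkinje cells, was at 8.86, 9.91 and 10.99 at P21 and at 12.54, 12.58, 12.47 and 12.40 at P28. Its P28 arrays lay close together, and its P21 arrays stood apart from each other and below. The difference was 2.58 ± 0.71 (adjusted p = 0.0478), and the call was lost without P21 array 1 or 2 or any 1 of the P28 arrays. Calb1, the calcium buffer of Purkinje cells, was at 7.89, 9.35 and 10.89 at P21, lowest and highest in the same arrays as Car8, and at 10.55 to 11.09 at P28, so the ages overlapped (1.40 ± 0.94; adjusted p = 0.657). Pcp2, a Purkinje cell G-protein regulator, was at 10.54, 11.23 and 12.27, then 11.77, 12.06, 11.82 and 12.24 (0.63 ± 0.47; adjusted p = 0.722). Of 13 Purkinje cell markers 1 was called higher and 0 lower, with a median difference of 0.52. The mean of the list was 8.30, 8.77 and 9.35 at P21 and 9.30 to 9.58 at P28, so P21 array 3 reached the P28 range and array 1 was farthest below it. In Purkinje cells themselves this list averaged 12.10 at P21 and 11.91 at P28.

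Of 13 granule cell markers 2 were called higher and 1 lower. Gabra6, the GABA-A receptor subunit of granule cells, was at 6.88, 5.64 and 5.65 at P21 and 8.05, 8.08, 8.11 and 8.47 at P28 (2.12 ± 0.39; adjusted p = 1.85e-03). Every P28 array exceeded every P21 array. Cbln3, a granule cell protein related to cerebellin, was at 5.98, 5.22 and 5.77, then 7.65, 7.73, 7.21 and 7.26 (1.81 ± 0.39; adjusted p = 8.46e-03), and its call was lost without P21 array 2. Slc17a7, the vesicular glutamate transporter that defines granule cells, was at 5.46 to 5.55 at P21 and 5.42 to 5.58 at P28, near the low end of the scale. Rbfox3, the neuronal nuclear antigen NeuN, fell by 1.25 (SE 0.33; adjusted p = 0.0416), and its call was lost without any 1 of the P21 arrays or P28 array 1, 2 or 4. The median difference of the list was 0.28, and its mean was 6.80 to 7.27 at P21 and 7.18 to 7.55 at P28. Gabra6 and Cbln3 are themselves in the list, so its mean is not independent of their rise. The part of the other members in that rise was not tested.

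No member of the oligodendrocyte (14 genes), endothelial and mural (12), Golgi and unipolar brush cell (8) or erythrocyte (3) lists was called, and their medians were -0.04, 0.17, 0.09 and -0.18. Over all genes 1.01% were called. The endothelial tight junction gene Cldn5 was at 6.32, 6.39 and 6.16 at P21 and at 7.32, 7.21, 7.06 and 7.61 at P28, which did not overlap and did not pass the test (1.01 ± 0.70; adjusted p = 0.673). Its SD was 0.12 at P21 and 0.23 at P28, and it was called with only the arrays of the step in the fit. The oligodendrocyte enzyme Cnp had separate arrays as well, at means of 10.99 ± 0.15 and 11.44 ± 0.16 (adjusted p = 0.859).

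Genes of GABA synthesis, packaging and uptake gave no call, where 1.01% of all genes were called. Of the 10 measured, 9 had differences above 0, and the median difference was 0.12. The second GABA-synthesising enzyme, Gad2, had means of 8.61 and 8.97, and the vesicular GABA transporter Slc32a1 had means of 12.72 and 12.60. Among the 13 GABA-A receptor subunits, 2 were called higher and 0 lower, with a median of 0.17. Beside Gabra6 this was Gabrb1 (1419719_at), the beta 1 subunit. It was at 9.84, 8.39 and 8.62 at P21 and at 10.73, 10.92, 10.69 and 10.66 at P28. The P28 arrays were all above the P21 arrays and close to each other, and the difference was 1.80 ± 0.36, or 3.49-fold (adjusted p = 3.49e-03). Its 3 other probe sets differed by 1.61, 1.09 and, near the low end, -0.03. Gabra2, the subunit common in young neurons, was at 8.30, 8.26 and 8.25 at P21 and 6.97, 8.01, 6.73 and 6.61 at P28, and missed the threshold (-1.20 ± 0.39; adjusted p = 0.123).

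Of the 16 genes of the inhibitory synapse scaffold and of chloride transport, 1 was called, and it fell. Glra2 (1434098_at), the alpha 2 subunit of the glycine receptor that is typical of immature neurons, was at 7.43, 5.36 and 6.17 at P21 and at 4.62, 4.64, 4.76 and 4.45 at P28. All P28 arrays lay at the low end of the scale, and P21 array 1 was highest. The difference was -1.71 ± 0.28 (adjusted p = 6.33e-04). The call was lost with only the arrays of the step, or only the Stellate/Basket arrays, in the fit. The median of the list was -0.13, and the receptor clustering gene Gphn and the chloride exporter Slc12a5 had differences of -0.13 and -0.24.

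Of 18 ionotropic glutamate receptor genes 0 were called, where 1.01% of all genes were, with a median of -0.03. Gria1, an AMPA receptor subunit also found in Bergmann glia, was at 10.69, 10.24 and 10.69 at P21 and at 11.85, 11.82, 11.75 and 12 at P28, without overlap, and narrowly missed the threshold (1.31 ± 0.39; adjusted p = 0.0804). It was called with only the arrays of the step in the fit. Among 30 potassium channel genes, 2 were called higher, with a median of -0.01. Kcnj3, the GIRK1 subunit of G-protein-gated potassium channels, was at 4.38, 6.48 and 5.95 at P21 and at 7.65, 7.75, 6.66 and 6.78 at P28 (1.61 ± 0.31; adjusted p = 2.78e-03). Its call was lost without P21 array 1, the lowest of all 7, and its 3 other probe sets differed by -0.002 to 0.24. Kcnmb4, a beta subunit of large-conductance calcium-activated channels, was at 7.66 to 7.99 at P21 and 8.66 to 8.87 at P28 (1.01 ± 0.21; adjusted p = 5.49e-03). It passed the size threshold by little, and the call was lost without P21 array 1 or 2 or P28 array 3 or 4.

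None of the 13 sodium and HCN channel genes, the 23 calcium channel and calcium-binding protein genes or the 27 vesicle release genes was called, with medians of -0.10, -0.09 and -0.02. Over all genes 1.01% were called, so lists of these sizes can hold 0 calls without departing from that share. Cacna1e, the R-type calcium channel, had an adjusted p of 0.0396, but its difference of -0.95 ± 0.25 was under the size threshold. Stx1a, a SNARE protein of vesicle fusion, was at 9.59, 9.35 and 8.62, then 8.27, 8.01, 8.44 and 7.82, and missed the test (-1.05 ± 0.30; adjusted p = 0.0566). Of 20 synaptic adhesion genes, 2 were called higher. Beside Cbln3 this was the postsynaptic Nlgn1, at 6.90, 7.03 and 6.33, then 8.22, 8.19, 7.36 and 7.94 (1.17 ± 0.29; adjusted p = 0.0276), whose call was lost without P21 array 1 or 3 or P28 array 1 or 2. The median of the adhesion list was 0.00. Of 20 genes of mGluR1 signalling with its calcium store and kinase, 1, Car8, was called, and the list median was 0.01.

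**Figure D3:**
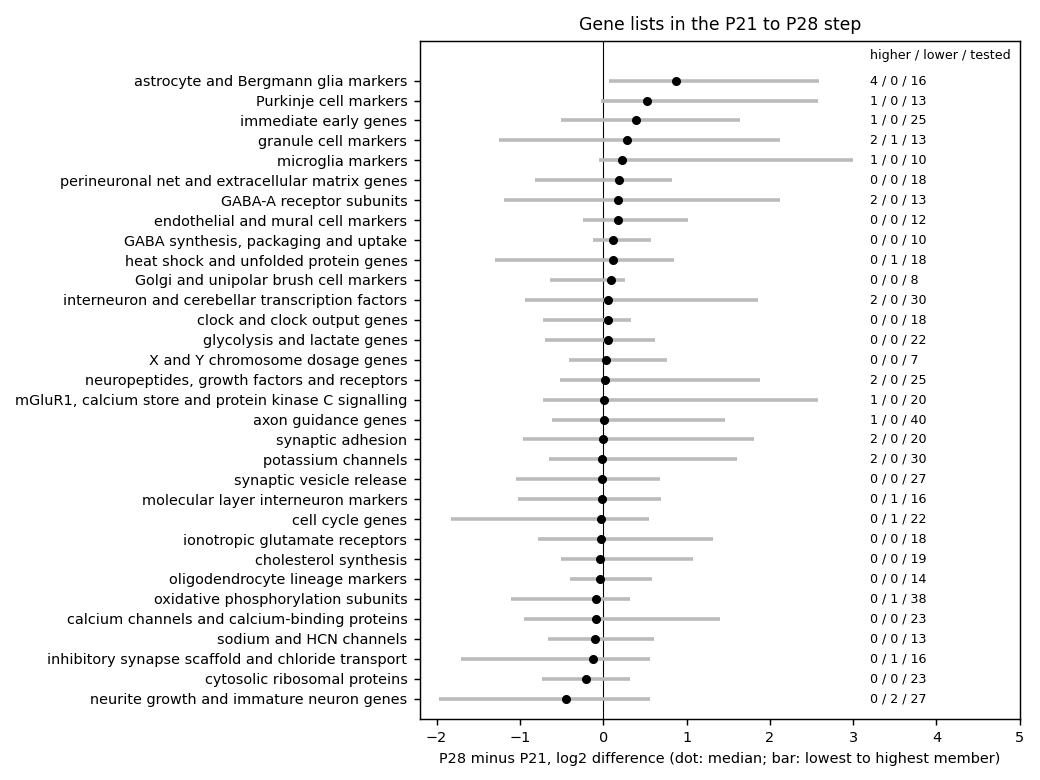
Difference P28 minus P21 in Stellate/Basket cells (log2, horizontal axis) for each gene list: the dot is the median and the bar runs from the lowest to the highest member, with the counts of members called higher, called lower and tested on the right. The astrocyte and Bergmann glia list has the highest median, 0.88, and the list of neurite growth and immature neuron genes the lowest, -0.44.

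Genes of young neurons and growing neurites had the lowest median of all lists drawn, at -0.44. Of the 27 measured, 2 were called lower and 0 higher, and 3 of the differences lay above 0. Dcx (1418139_at), the microtubule-binding protein doublecortin of migrating and young neurons, was at 9.01, 9.14 and 8.64 at P21 and at 7.45, 7.85, 7.56 and 6.11 at P28. No P28 array reached the P21 range, and P28 array 4 was the lowest. The difference was -1.69 ± 0.29 (adjusted p = 7.47e-04). The call of Dcx was lost with only the arrays of the step, or only the Stellate/Basket arrays, in the fit. It was also lost with the mean of its probe sets. Its 3 other probe sets, which were dimmer, differed by -0.83, -0.03 and 0.12. Cd24a, a surface glycoprotein of differentiating neurons, was at 9.80, 9.56 and 9.16 at P21 and at 7.84, 7.73, 7.62 and 6.94 at P28 (-1.97 ± 0.46; adjusted p = 0.0156), and its call was lost without P21 array 1 or 2 or P28 array 4. The call of Cd24a was also lost with the mean of its probe sets. Its 2 other probe sets, near the low end, differed by -0.039 and -0.175. Values of Cd24a in the other groups varied, with 4.60 to 8.80 in Purkinje cells at P21. The growth cone protein Basp1 (-1.62 ± 0.45) and Marcksl1 (-1.29 ± 0.38) had separate arrays and adjusted p of 0.0513 and 0.0699. Gap43, the classic growth cone protein, differed by -0.43. In the 22 measured cell cycle genes, 1 was called. Ccnd2, the cyclin D2 of neuronal precursors, was at 8.47, 8.58 and 8.89 at P21 and 6.03, 6.45, 7.10 and 7.73 at P28 (-1.82 ± 0.40; adjusted p = 9.03e-03), and its 6 other probe sets differed by -1.79 to 0.13.

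The leading genes that fell were of several kinds. Rec8 (1419147_at), a cohesin subunit known from meiosis, was at 9.96, 9.43 and 8.44 at P21 and at 6.76, 6.50, 7.25 and 7.00 at P28. Every P28 array was below every P21 array, and the difference was -2.40 ± 0.26, or 5.28-fold lower (adjusted p = 3.91e-07). Mia (1419608_a_at), a small secreted protein first known from melanoma and cartilage, was at 10.59, 10.55 and 10.87, then 8.21, 8.31, 8.36 and 8.92. The arrays of each age lay close together and far from those of the other, and the difference was -2.22 ± 0.22, or 4.66-fold (adjusted p = 1.23e-07). Amn (1417920_at), which encodes amnionless, part of the receptor for vitamin B12 with its intrinsic factor, was at 8.42, 8.49 and 9.16, then 6.67, 6.42, 6.81 and 6.58 (-2.07 ± 0.25; adjusted p = 3.71e-06). The RNA-binding protein Celf5, the immunoglobulin superfamily member Igsf3 and the transcription factor Carf fell, with differences of -1.88, -1.79 and -1.77 and adjusted p of 3.47e-03, 2.55e-04 and 0.0157. Carf lost its call without P21 array 2 or P28 array 4. Ly6h, a GPI-anchored protein that binds nicotinic receptors, was at 10.13, 10.18 and 10.35 at P21 and at 8.61, 8.89, 9.27 and 8.29 at P28 (-1.46 ± 0.16; adjusted p = 8.11e-07). Pradc1, the tRNA enzyme Dus2, Prr3 and the organic anion transporter Slco3a1 also fell, with differences of -1.64, -1.55, -1.44 and -1.41. Dus2 lost its call without P21 array 1 or 3, and its only other probe set, near the low end, differed by 0.05.

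Ctxn3 (1438059_at), a small membrane protein of the cortexin family, had the smallest adjusted p of all genes. It was at 4.90, 4.77 and 4.73 at P21, the low end of the scale, and at 7.48, 7.50, 7.93 and 7.04 at P28 (2.69 ± 0.18, or 6.44-fold; adjusted p = 2.85e-11). The extracellular sulfatase Sulf1 (2.39 ± 0.37), the cytochrome Cyp4v3 (2.15 ± 0.36), the Wnt inhibitor Wif1 (2.12 ± 0.48), the lipid droplet protein Cidea (2.09 ± 0.46) and the scaffold protein Mpp6 (1.97 ± 0.27) also rose, with adjusted p from 2.87e-05 for Mpp6 to 0.0122 for Wif1. Sulf1 was at 7.11, 4.83 and 4.88 at P21, so that P21 array 1 came close to the lowest P28 array at 7.30. Wif1 and Itgb8 were likewise spread at P21, from 5.31 to 8.31 and from 5.63 to 8.48. The call of Wif1 was lost without P21 array 2, that of Cidea without P21 array 1 or 2, and that of Itgb8 without P21 array 1 or 2 or P28 array 1 or 2. Slc13a3 was measured by 3 other probe sets, all near the low end, which differed by -0.12 to 0.12.

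Among transcription factors, peptides and activity genes, a few rose. Of 30 interneuron and cerebellar transcription factors, 2 were called higher, Sox2 and Bcl11b, with a list median of 0.06. Bcl11b, known as CTIP2, was at 6.13, 6.43 and 6.38, then 8.26, 7.36, 8.13 and 7.99 (1.62 ± 0.30; adjusted p = 1.74e-03). Its 3 other probe sets, which were dimmer, differed by 0.04 to 0.17, and its call was lost with the mean of its probe sets. Sox2 was at 6.95, 6.64 and 7.43, then 8.77, 8.82, 9.12 and 8.77, and lost its call without P21 array 2. Of 25 neuropeptide and growth factor genes, 2 were called higher, with a median of 0.02. Cck, the neuropeptide cholecystokinin, was at 6.13, 6.25 and 6.20 at P21, nearly equal, and at 7.55, 8.04, 8.27 and 8.42 at P28 (1.88 ± 0.44; adjusted p = 0.0168), and lost its call without any 1 of the P21 arrays. Ntrk2, the BDNF receptor TrkB, rose in the probe set used (1.16 ± 0.22; adjusted p = 1.96e-03), but its 7 other probe sets differed by -0.79 to 1.56, 5 of them below 0, and the call was lost without P21 array 2. Sema6d, a transmembrane semaphorin, was the 1 called of 40 axon guidance genes (1.46 ± 0.27; adjusted p = 1.57e-03), and its 3 other probe sets, which were dim, differed by -0.09 to 0.13. The list median was 0.00.

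Of 25 immediate early genes 1 was called higher, and 23 had differences above 0, with a median of 0.40 against 0.00 over all genes. Jun, a component of AP-1, was at 8.21, 7.94 and 8.06 at P21 and at 9.15, 9.12, 9.64 and 9.63 at P28 (1.32 ± 0.23; adjusted p = 1.19e-03). The ages stood clearly apart. Fos was at 12.60, 12.08 and 12.05, then between 12.96 and 13.02, and Egr1 at 10.60, 10.25 and 9.76, then 11.27, 11.54, 11.14 and 11.45. Neither passed the test, with adjusted p of 0.514 and 0.285, although their arrays did not overlap. In all, 11 of the 25 had separate arrays with P28 above, where 6.29% of all genes did.

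In housekeeping groups, calls are given beside the share over all genes tested, 1.01%. Of 18 heat shock genes 1 was called, the small heat shock protein Hspb1, which fell by 1.30 (SE 0.31; adjusted p = 0.0203) and lost its call without P21 array 1 or 3. Of 38 oxidative phosphorylation genes 1 was called, the ATP synthase subunit Atp5o, which fell by 1.10 (SE 0.29; adjusted p = 0.0383) and lost its call without any 1 of the P21 arrays or P28 array 1, 2 or 3. The medians of these lists were 0.11 and -0.09. No gene was called among 23 cytosolic ribosomal protein, 22 glycolysis and lactate, 19 cholesterol synthesis, 18 clock or 18 perineuronal net and matrix genes, with medians of -0.21, 0.05, -0.04, 0.06 and 0.19. For the ribosomal proteins, 3 of the 23 differences lay above 0 and 6 genes had separate arrays with P28 below, where 6.68% of all genes did. The mean of that list was 10.61, 10.48 and 10.68 at P21 and 10.22, 10.45, 10.23 and 10.40 at P28, so the ages did not overlap. Ncan, a proteoglycan of the nets, had an adjusted p of 0.0298 and a difference of -0.83 ± 0.21, under the size threshold.

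The genes called between P21 and P28 were then read on Stellate/Basket arrays that this step does not use, those of P14 and P35. Both comparisons take each gene's spread from the same fit, so their calls are not independent. From P14 to P35, 966 of all genes were called (5.53%). Among them were 62 of the 119 genes that rose as higher (52.1%) and 2 as lower, where 1.98% of all genes were called higher and 3.55% lower. Of the 57 genes that fell, 19 were called lower (33.3%) and 2 higher. The means of 100 of the 119 and of 43 of the 57 at P35 lay between those at P21 and P28, as they did for 4360 of all 17478 genes. The median level of the 119 genes was 6.38 at P14, 7.05 at P21, 8.60 at P28 and 7.71 at P35, and that of the 57 was 8.66, 8.77, 7.41 and 7.91. For 111 of the 119 the P28 mean was the highest of these 4 ages, and for 50 of the 57 it was the lowest. The counts of P35 means between P21 and P28 and those of the extreme P28 mean follow in part from the choice of genes with a wide gap between these ages. The step before, from P14 to P21, shares the P21 arrays with this step. There 309 genes were called (1.77%), 184 higher (1.05%) and 125 lower (0.715%), among them 11 of the 16 astrocyte and Bergmann glia markers as higher and 6 of the 27 neurite growth and immature neuron genes as lower. The 2 P35 arrays differed from each other: Ctss was at 5.28 in the lower and 7.81 in the higher, Nfe2l2 at 5.01 and 7.21, and Slc4a4 at 7.56 and 9.28. With 2 arrays at P35, the test takes their spread to be that of the groups as a whole.

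Single genes followed different courses. Glra2 averaged 8.54 at P14, 6.32 at P21, 4.61 at P28 and 4.65 at P35, and fell from P14 to P35 (-3.89 ± 0.32; adjusted p = 1.25e-09). Dcx, at 11.31 at P14, fell over the same interval (-4.05 ± 0.33; adjusted p = 1.25e-09). The P21 means of both lay between those at P14 and P28. Acsbg1 rose from P14 to P35 by 2.44 ± 0.29 (adjusted p = 9.14e-07) and Gabrb1 by 1.74 ± 0.40 (adjusted p = 4.06e-03). In contrast, Rec8 was at 7.10 at P14 and at 8.18 at P35, and rose over that interval (1.09 ± 0.29; adjusted p = 0.0134) although it fell from P21 to P28. Cd24a was at 9.29 at P14 and 10.01 at P35, above its P28 mean of 7.53. Cck, Bcl11b and Jun differed between P14 and P35 by 0.29, 0.03 and -0.03, with adjusted p of 0.777, 0.973 and 0.967, so their higher level at P28 was not seen in the P35 arrays. Nlgn1 was called higher at P28 than at P21 and lower at P35 than at P14 (-1.50).

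**Figure D4:**
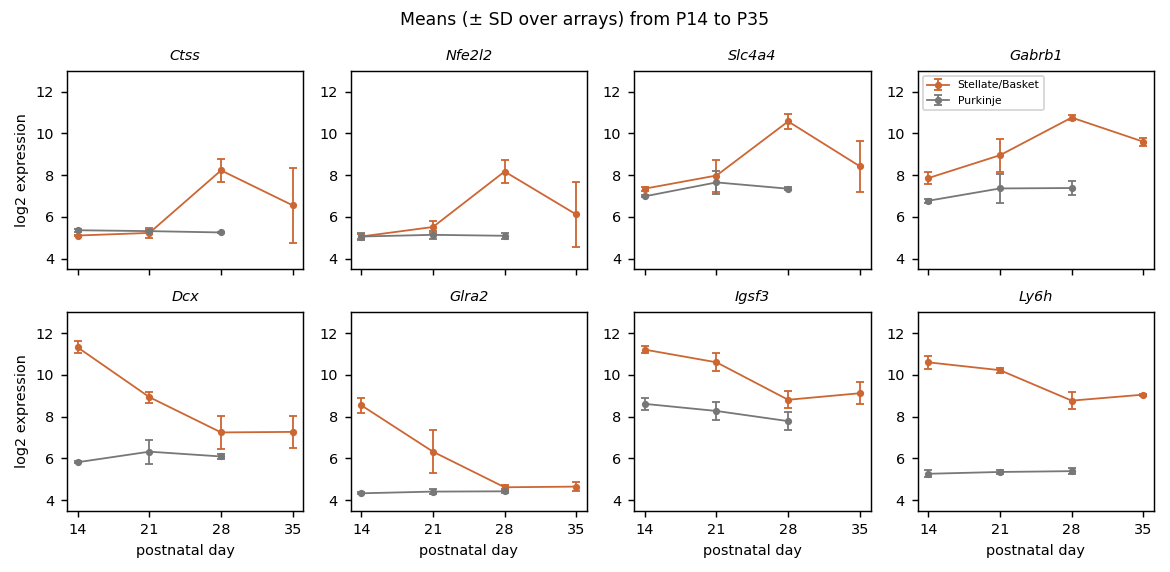
Mean deposited log2 expression (vertical axis) against postnatal day for 8 genes in Stellate/Basket cells (n = 4, 3, 4 and 2 arrays at P14, P21, P28 and P35) and Purkinje cells (n = 3, 4 and 4 at P14, P21 and P28); error bars are the SD over arrays. Ctss, Nfe2l2 and Slc4a4 had their highest mean at P28 and a wide SD at P35, while Glra2 was at 8.54 at P14 and 4.61 at P28.

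The same step was then read in Purkinje cells from the same mouse line. Their arrays were mixed in Xist, at 7.13 to 11.28 at P21 and 7.08 to 11.07 at P28, and the part of this in the comparison was not tested. Between P21 and P28, 108 genes were called in Purkinje cells (0.618%), 38 higher and 70 lower. Of the 119 genes that rose in Stellate/Basket cells, 0 were called higher in Purkinje cells and 1, Cabp7, lower. Of the 57 that fell, 2 were called lower there. A call in 1 cell type only is no test of a difference, so the difference between the changes was tested: 117 genes were called (0.669%), 77 with the Stellate/Basket change the higher (0.441%) and 40 with it the lower (0.229%). These include 45 of the 119 and 16 of the 57. This test shares the Stellate/Basket arrays with the step itself, so the 2 counts are not independent.

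Ctss was at 5.22 to 5.35 in Purkinje cells at P21 and 5.22 to 5.30 at P28, and its changes differed by 3.06 ± 0.39 (adjusted p = 4.08e-05). Slc4a4 (2.89 ± 0.46), Nfe2l2 (2.70 ± 0.38) and Ctxn3 (2.51 ± 0.25) showed the same pattern, with adjusted p of 4.44e-04, 1.41e-04 and 2.39e-07. In Purkinje cells Nfe2l2 and Ctxn3 stayed near the low end of the scale at both ages, at means of 5.14 and 5.09 and of 4.86 and 5.04. Toward the other side, Mia (-2.42 ± 0.30), Rec8 (-2.27 ± 0.35), Pradc1 (-2.04 ± 0.46) and Amn (-1.93 ± 0.34) fell in Stellate/Basket cells and had Purkinje differences of 0.20, -0.13, 0.40 and -0.14. Fabp3, the heart-type fatty acid binding protein, was at 10.73 to 10.85 at P21 and 9.37 to 9.80 at P28 in Stellate/Basket cells, a difference of -1.20 (adjusted p = 0.0383), and differed between the changes by -1.84 ± 0.43. The call of Fabp3 in the step was lost without any 1 of the P21 arrays or P28 array 1, 3 or 4.

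For 6 of the 16 leading genes of that test the Purkinje arrays moved and the Stellate/Basket difference was not called. Il18, an interleukin made as an inactive precursor, fell in Purkinje cells from 11.17 to 9.23, the FXYD-family ion pump regulator Fxyd7 from 9.90 to 7.43, and the adhesion molecule Alcam from 7.49 to 5.84. Il18 and Alcam had separate arrays in Stellate/Basket cells, with differences of 1.03 and 0.75. In Purkinje cells the ages of Alcam overlapped, at 5.66 to 8.83 at P21 and 5.60 to 6.01 at P28. The phosphatase gene Sgpp2, Pdxdc1 and the pyrimidine synthesis enzyme Cad rose there by 1.87, 1.87 and 1.49. Cabp7, a calcium-binding protein, did both: it rose in Stellate/Basket cells from 6.85 to 8.17 (1.32 ± 0.30; adjusted p = 0.0116) and fell in Purkinje cells from 10.65 to 9.64 (-1.01 ± 0.27; adjusted p = 0.0399). The call of its rise was lost without P21 array 1 or 2.

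**Figure D5:**
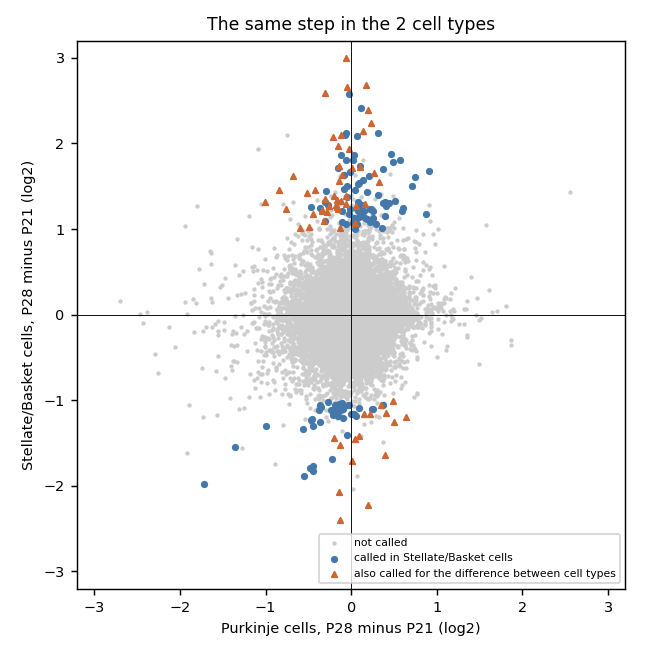
Change from P21 to P28 in Purkinje cells (horizontal axis, log2) against that in Stellate/Basket cells (vertical axis, log2) for all 17478 genes tested; circles and triangles are the genes called in Stellate/Basket cells, triangles those also called for the difference between the cell types. Genes with a Stellate/Basket difference above 2 have Purkinje differences near 0, as for Ctss with -0.06.

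Finally, the called genes were set against the difference between the cell types at P14. It was measured on arrays that the step does not use, but with the same spread for each gene. The P14 groups also differed in the sex-linked transcripts. Xist was at 12.77 to 12.88 in the Stellate/Basket and 6.47 to 6.59 in the Purkinje arrays at P14, and Eif2s3y at 4.17 to 4.27 and 8.44 to 9.02, so that cell type and this difference cannot be told apart here. Of the 57 genes that fell, 31 were called lower in Purkinje than in Stellate/Basket cells at P14 (54.4%) and 4 higher, where 6.73% and 6.59% of all genes were. Purkinje minus Stellate/Basket differences were -5.34 for Ly6h (adjusted p = 6.77e-22), -5.50 for Dcx (adjusted p = 6.19e-16), -4.21 for Glra2 (adjusted p = 2.6e-13) and -3.58 for Mia (adjusted p = 2.52e-14). Of the 119 that rose, 29 were called higher in Purkinje cells at P14 (24.4%) and 11 lower. The difference was 3.78 for Cck and 2.45 for Bcl11b, which were higher in Purkinje cells, and -1.74 for Fabp7 and -1.28 for Mpp6, which were lower. Purkinje cell markers in the Stellate/Basket arrays moved with the step as given above, and their part in the rise of the 29 genes was not tested. Car8 is both 1 of these markers and 1 of the 29 genes.

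The fit borrowed its spread from all 40 arrays, with a median standard error of 0.19 for this step. With only the 7 arrays of the step in the fit, 73 genes were called, 55 of them among the 176. Named genes whose call was lost there include Glra2, Dcx, Celf5, Ccnd2, Sulf1, Slc13a3, Gabrb1, Cyp4v3, Pradc1 and Prr3.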

How the data were processed

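Whole-genome expression was measured on 42 array columns of hand-picked cells. The authors deposited normalized log2 expression for each probe set. R 2.9.1 and GCRMA appear in the submitters' processing notes, with no role or order given in the sources used here. 2 columns, Stellate/Basket P35 replicate 3 and P56 replicate 2, equal the mean of the other columns of their group within 1e-08 and were left out, which leaves 40 arrays. The design text gives 3 replicates, while several groups, P28 among them, hold 4 columns, used as labelled. The labels call replicates biological. P-values rest on each gene's spread within groups, shared over the 40 arrays, and not on that of the P21 and P28 arrays alone.

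Of 45101 probe sets, 34958 had 1 gene symbol, 932 several and 9211 none in the platform annotation. A gene was its probe set of 1 symbol with the highest mean. Of 18194 genes, 17478 exceeded log2 5 in at least 3 arrays. No further scaling was applied. limma 3.58.1 (R 4.3.3) fitted 1 mean for each of 12 groups, with moderated variances and Benjamini-Hochberg adjustment over the 17478 genes. Differences are the later minus the earlier age. On simulated data, changes of log2 1.5, 2 and 3 in the P21 to P28 step were recovered in 97.0%, 97.0% and 100.0% of genes, with 2 false calls among 17478 genes. For the cell type difference the shares were 85.1%, 89.6% and 98.5%, with 9 false calls. Simulated noise was normal with 1 spread per gene in all groups. It therefore did not cover unequal spread, as for Glra2 (SD 1.04 at P21, 0.13 at P28).

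Named were the 15 largest called differences in each direction without overlap of arrays, the 8 largest in each direction for the difference between cell types, up to 4 called members of each of 33 lists (or the 2 largest differences), and the checks Gad1, Kit, Pvalb, Pcp2, Calb1, Gfap and Xist. Clone and model names were counted, not named. Outside this rule, the list members Tyrobp, Aif1, Slc1a2, Slc1a3, Gja1, Aqp4, Slc17a7, Gad2, Slc32a1, Gphn, Slc12a5, Gabra2, Basp1, Marcksl1, Gap43, Fos and Egr1 were chosen after their values were seen. The members and lists were chosen with earlier results of these data known. Lists hold 670 genes, 601 of them tested, 30 in more than 1 list. Alternatives covered the dim-gene filter, probe set summary, variance model, array weights, replicate block, centring, quantile normalization, thresholds, arrays in the fit and each array left out; the 42 columns and the fit without Stellate/Basket P56 were added after the data were seen. Promoter windows are from RefSeq (GRCm38.p6). Plots were made in Python 3.11.15 (matplotlib 3.10.9).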

Additional observations from a re-analysis of the deposited data

Results flagged for a closer look

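Among the 4 P28 arrays, a single array stood apart from the rest for 4 of the named genes by Dixon's 95% criterion: Fabp7 in array 2 (11.6), Gabarap in array 2 (9.15), Gabra6 in array 4 (8.47) and Sox2 in array 3 (9.12). Chance alone gives such an array in about 1 in 20 groups. For Fabp7, Gabra6 and Sox2 the gap is small beside the distance to the P21 arrays.

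The change from P21 to P28 differed between Stellate/Basket and Purkinje cells for 16 named genes by the limma test of the difference itself. Stellate/Basket minus Purkinje change was 3.06 for Ctss, 2.97 for Il18, 2.89 for Slc4a4, 2.70 for Nfe2l2, 2.51 for Ctxn3, 2.47 for Fxyd7, 2.40 for Alcam and 2.33 for Cabp7. It was -2.42 for Mia, -2.27 for Rec8, -2.22 for Sgpp2, -2.16 for Pdxdc1, -2.07 for Cad, -2.04 for Pradc1, -1.93 for Amn and -1.84 for Fabp3.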

How the results depend on the processing

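No gene called between P21 and P28 changed sign under any of the alternatives run for that step. The 176 calls became 92 with the mean of a gene's probe sets (82 shared with the 176), 95 at adjusted p under 0.01, 363 with no fold minimum, 73 with only the arrays compared, 66 with only Stellate/Basket arrays (59 shared) and 127 to 187 with each of the 7 arrays left out in turn. Of the 176 genes, 103, 101 and 126 stayed called without P21 array 1, 2 and 3, and 130 to 140 without each P28 array. The 117 calls for the difference between cell types became 753 with array weights, whose estimation stopped before its convergence tolerance, 45 at adjusted p under 0.01, 181 without the Stellate/Basket P56 arrays and 81 to 111 with each array left out; without P21 array 2 the share with the higher Stellate/Basket change was 46.9%, and with median centring 54.2%, against 65.8%. The 966 calls for P35 minus P14 became 570 with the mean of probe sets, 632 at adjusted p under 0.01, 2101 with no fold minimum and 629 with only Stellate/Basket arrays, and the 2327 for the cell types at P14 became 4071 with no fold minimum. The deviations of same-numbered arrays of P21 and P28 from their group means correlated at 0.014, 0.047 and -0.015. The labels give no pairing, and with so few arrays these values cannot exclude one. With a replicate block, 159 genes were called in the step, 149 of them among the 176, and 86, 939 and 2330 in the other comparisons. Signal near the low end of the scale limits folds for Ctss, Ctxn3, Nfe2l2 and Glra2, since no detection calls were used.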
